A study of Mus musculus with 8 samples.

Results

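Myrf and 7 other regulators of oligodendrocyte differentiation were followed in cultured oligodendrocyte progenitors of the mouse, the cells that divide and give rise to the myelin-making cells of the brain. The 8 genes are Myrf, Tmem98, Nkx2-2, Nkx6-2, Zfp488, Zfp24, Zeb2 and Tcf7l2, and each was taken by name from the 56980 gene IDs of the deposited count table. All 8 were among the 18905 genes with enough counts to be tested. The low glucose (LG) cultures had their 25 mM glucose diluted in 3 steps, reaching 12.5 mM (day 1), 5 mM (day 2) and 2.5 mM (day 3), and the high glucose (HG) cultures stayed at 25 mM, with both harvested on day 5. The cells of all cultures came from wild-type C57BL/6 pups of either sex at postnatal day 6 to 8, were captured from cortex with an antibody to PDGFRα and were kept in 10 ng/mL PDGF-AA, a mitogen that holds them as progenitors. bFGF, used at 20 ng/mL to expand the cells, was washed out before the glucose was changed. Each group had 4 libraries numbered 1 to 4, and the sample descriptions give numbers 1 and 2 a shared preparation code, so n = 4 counts libraries rather than preparations.

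Progenitors become oligodendrocytes by leaving the cell cycle, passing through a short premyelinating stage and then switching on the myelin genes. Myrf encodes a membrane-bound transcription factor that assembles into trimers and cuts itself, which frees a fragment that enters the nucleus and activates myelin genes. Tmem98 encodes a membrane protein that binds Myrf and blocks this cut. The homeodomain repressor Nkx2-2 and the zinc finger protein Zfp488 act at the start of differentiation, Zeb2 opposes the BMP and Notch signals that hold it back, Tcf7l2 is made for a short time as cells commit, Zfp24 is needed for myelin gene expression, and Nkx6-2 is a homeodomain protein of maturing oligodendrocytes.

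Total counts per library were 53869166 to 65733928 in LG and 50864130 to 61915909 in HG. These totals exceed the read depth given in the labels' protocols, and whether a count stands for a read, a mate or a multi-mapped read is not given in the sources used here, so counting intervals take the counts as deposited. The 8 progenitor markers summed to 8927 to 12482 CPM (counts scaled by library size) in LG and 8718 to 11841 CPM in HG, as the labelled cell type would have it. The 8 microglial markers summed to 1.06 to 2.53 CPM in LG and 1.26 to 1.75 CPM in HG, led by Cd68 at 1.20 CPM. Of these Cx3cr1 and Itgam were at 0 counts in every library. The 7 endothelial markers summed to 5.84 to 7.64 CPM in LG and 5.04 to 6.64 CPM in HG, led by Vwf at 3.57 CPM. Their sum was higher in LG in every pair, and Cldn5 and Cdh5 were at 0 counts in every library. The 5 fibroblast markers summed to at most 0.521 CPM. The 10 astrocyte markers summed to 750 to 1928 CPM in LG and 825 to 1860 CPM in HG, led by Slc1a3 at 436 CPM. The 10 neuron markers summed to 890 to 968 CPM in LG and 896 to 1061 CPM in HG, of which Map2 gave 874 CPM. The 8 markers of mature oligodendrocytes were at 2.46 to 17.4 CPM in LG and 2.03 to 18.3 CPM in HG, with Klk6 at 0 in every library. In bulk RNA, fewer cells of a type and less RNA per cell cannot be told apart.

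Myrf was higher in LG. It was at 44.9, 50.4, 63.2 and 104 CPM in LG replicates 1 to 4, against 29.7, 38.1, 38.1 and 65.3 CPM in HG replicates 1 to 4. Each LG library lay above the HG library of its own number, while HG replicate 4 lay above LG replicates 1, 2 and 3, so the groups overlapped. The means were 65.7 ± 26.8 CPM in LG and 42.8 ± 15.5 CPM in HG (SD, n = 4). Without regard to the numbers the log2 fold change was 0.62 (SE 0.32) and did not pass by edgeR's quasi-likelihood test (Benjamini-Hochberg adjusted p = 0.9999). With the replicate number as a block Myrf rose 1.52-fold, a log2 fold change of 0.60 (SE 0.067, edgeR adjusted p = 0.00871), and was the 5th of all genes tested by its p-value in that fit.

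**Figure D1:**
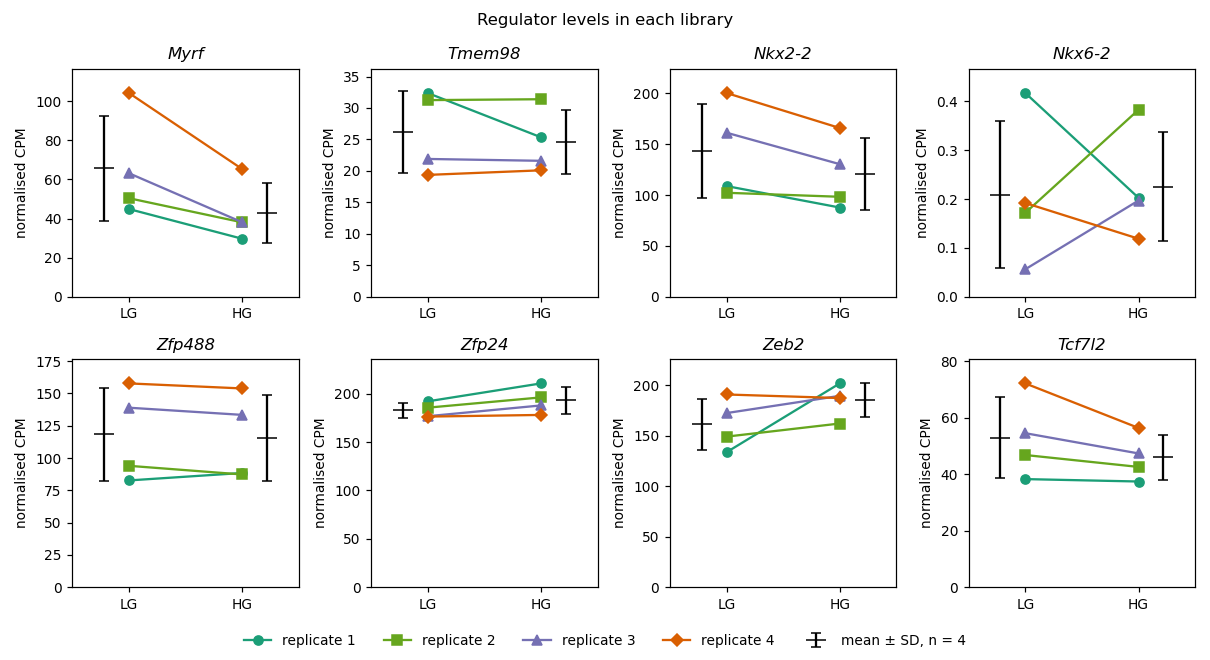
Normalised CPM (counts scaled by library size and TMM factor) of the 8 regulators in the 4 LG and 4 HG libraries. Lines join libraries of the same number, and black bars give the group mean ± SD. The 4 Myrf lines lie higher at LG than at HG (65.7 against 42.8 CPM on average).

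The difference in Myrf was present in every pair and in each preparation. On the log2 CPM scale LG minus HG was 0.60 in pair 1, 0.40 in pair 2, 0.73 in pair 3 and 0.67 in pair 4, a mean of 0.60 ± 0.14 (SD over 4 pairs). Of the 8 regulators Myrf was the 1 that passed with the block, against 0.418% of all 18905 genes tested (79 genes) in either direction and 0.111% (21 genes) as higher in LG. It also passed with offsets for GC content and transcript length added to the block (0.54, edgeR adjusted p = 0.00475), where 0.783% of all genes did. Without the block no regulator passed, and neither did any other gene, with 0% called, while 745 genes had an unadjusted p under 0.05 there and DESeq2 called 4 and limma-voom 0. The call also moved with the libraries used. With both libraries of number 1 left out of the blocked fit Myrf was at 0.61 with an edgeR adjusted p = 0.0545, and with those of number 2 left out at 0.67 with an edgeR adjusted p = 0.0527, so it did not pass in either case. Blocked by preparation code it did not pass (0.60, edgeR adjusted p = 0.117), and with libraries 1 and 2 summed within each group it did (0.64, edgeR adjusted p = 0.0169). In fits without the block the value was 0.30 without LG replicate 4 and 0.90 without HG replicate 4.

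**Figure D2:**
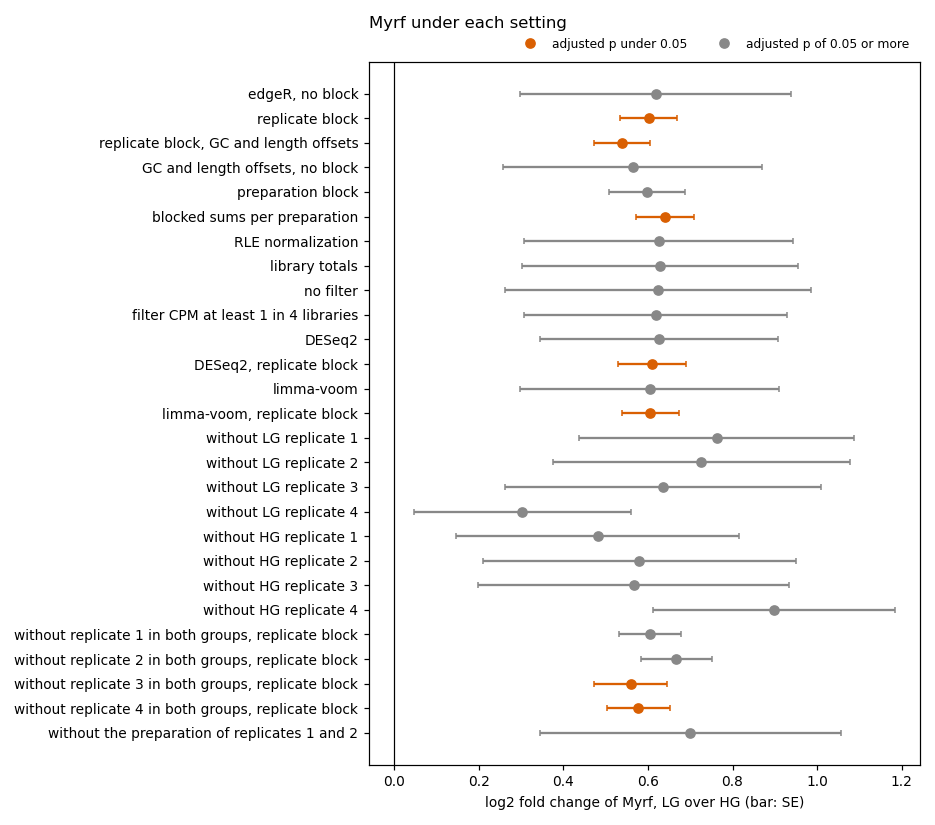
Log2 fold change of Myrf, LG over HG, with its SE, under the 27 settings of the fit. All 27 values are above 0, from 0.30 to 0.90, and the orange points passed an adjusted p of 0.05.

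Markers of premyelinating oligodendrocytes moved in the same direction as Myrf. The 10 markers summed to 2352 to 4411 CPM in LG and 1933 to 3746 CPM in HG, with no member at 0. The sum was higher in LG in 4 of 4 pairs. Gpr17 led it at 1362 CPM, followed by Fyn at 684 CPM, and Gpr17 was also counted among the progenitor markers. All 10 had positive log2 fold changes with the block, as did 50.4% of all genes tested, and 1, the sialidase gene Neu4, passed (0.76, edgeR adjusted p = 0.00576), where 0.418% of all genes were called. Neu4 did not pass with the preparation code as the block (edgeR adjusted p = 0.117) or in the blocked fit without number 2 (0.0527). Markers of mature oligodendrocytes did not move this way. Their sum was higher in LG in 1 of 4 pairs. With the block 2 of the 6 tested were higher in LG and 4 lower, and 0 were called. Of the 8 mature markers 6 were under 1 CPM. The part of premyelinating or mature cells in the Myrf result was not tested.

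Tmem98, whose product holds Myrf in its uncut form, did not pass. It was at 32.4, 31.2, 21.9 and 19.4 CPM in LG replicates 1 to 4, against 25.3, 31.4, 21.6 and 20.1 CPM in HG replicates 1 to 4. The groups overlapped, and LG was higher in 2 of 4 pairs and lower in 2. The log2 fold change with the block was 0.079 (SE 0.080, edgeR adjusted p = 0.711). Pair 1 differed by 0.35 and the other pairs by -0.053 to 0.020, and the sign turned in the blocked fit without number 1 (-0.013).

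The log2 ratio of Myrf to Tmem98 was 0.47, 0.69, 1.53 and 2.43 in LG replicates 1 to 4, against 0.23, 0.28, 0.82 and 1.70 in HG replicates 1 to 4. It was higher in LG in 4 of 4 pairs, by 0.24 to 0.73, and within each group it was higher in libraries 3 and 4 than in 1 and 2. The group means, 1.28 ± 0.89 in LG and 0.76 ± 0.68 in HG (SD, n = 4), differed by less than the spread between libraries (two-sided exact permutation test over 70 assignments, p = 0.371). Of the 7 ratios of Myrf to another regulator, that to Zfp488 had the smallest p (difference 0.57, exact permutation p = 0.0286, the smallest that 4 against 4 libraries can give, and 0.133 after Benjamini-Hochberg adjustment over the 7). None passed after adjustment. A single ratio at that smallest p could not pass over the 7, so the adjusted values do not decide whether any ratio differed. The ratio was higher in LG in 4 of 4 pairs for 6 of the 7 genes and in 3 of 4 for Nkx6-2. All 7 share Myrf, itself higher in LG in 4 of 4 pairs, so these counts are not separate results. Library numbers play no part in the exact permutation p-values.

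Nkx2-2, which represses the progenitor receptor gene Pdgfra, was higher in LG in every pair and did not pass. It was at 109, 102, 161 and 200 CPM in LG replicates 1 to 4, against 87.7, 98.3, 130 and 166 CPM in HG replicates 1 to 4. The 4 differences were 0.057 to 0.31 on the log2 scale, and the groups overlapped. The log2 fold change with the block was 0.24 (SE 0.061, edgeR adjusted p = 0.138), and without it 0.25 (SE 0.26, edgeR adjusted p = 0.9999). DESeq2 with the same block passed it (adjusted p = 0.0265). In fits without the block it was at 0.041 without LG replicate 4 and 0.44 without HG replicate 4. The antisense gene Nkx2-2os covers 278 bp, or 9.67%, of the Nkx2-2 exons and had 160 to 275 counts per library against 4767 to 13573 for Nkx2-2. The strand setting of the counting is not given in the sources used here, so reads of the overlap cannot be assigned to a strand.

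Nkx6-2 was barely detected. It had 22, 11, 3 and 13 counts in LG replicates 1 to 4, against 11, 20, 12 and 7 counts in HG replicates 1 to 4. The sums were 49 counts in LG (95% exact Poisson interval 36.3 to 64.8, counting error only) and 50 counts in HG (37.1 to 65.9), and the log2 fold change with the block of -0.18 (SE 0.52, edgeR adjusted p = 0.908) was smaller than its SE. The opposite-strand gene Inpp5a overlaps 12.9% of the Nkx6-2 exons and had 833 to 1159 counts per library.

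The zinc finger genes Zfp488 and Zfp24 had small differences. Zfp488, an oligodendrocyte protein that works with Olig2, was at 82.6, 94.0, 139 and 158 CPM in LG replicates 1 to 4, against 88.4, 87.2, 133 and 154 CPM in HG replicates 1 to 4. Its log2 fold change with the block was 0.026 (SE 0.057, edgeR adjusted p = 0.879), and the pairs ran from -0.097 to 0.11. Zfp24 was at 192, 186, 177 and 176 CPM in LG replicates 1 to 4, against 211, 196, 188 and 178 CPM in HG replicates 1 to 4. It was lower in LG in 4 of 4 pairs, by 0.014 to 0.13 on the log2 scale, and did not pass (log2 fold change with the block -0.079, SE 0.055, edgeR adjusted p = 0.566). With the GC and length offsets the sign of Zfp24 turned, to 0.041 with the block.

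Zeb2 and Tcf7l2 did not pass either. Zeb2, which binds Smad proteins, was at 134, 149, 172 and 191 CPM in LG replicates 1 to 4, against 202, 162, 189 and 187 CPM in HG replicates 1 to 4. LG was lower in 3 of 4 pairs, most in pair 1 (-0.59), and higher in pair 4 (0.027). The log2 fold change with the block was -0.21 (SE 0.089, edgeR adjusted p = 0.347), -0.041 when the GC and length offsets were added, and -0.076 in the blocked fit without number 1. The longest transcripts of Zeb2 and Zfp24 had GC contents of 40.6% and 40.8%, the lowest of the 8 regulators. Tcf7l2, an HMG box factor that works with β-catenin, was at 38.3, 46.8, 54.5 and 72.2 CPM in LG replicates 1 to 4, against 37.4, 42.6, 47.4 and 56.4 CPM in HG replicates 1 to 4. LG was higher in 4 of 4 pairs, by 0.033 to 0.36, with a log2 fold change with the block of 0.18 (SE 0.067, edgeR adjusted p = 0.266), or 0.21 when the offsets were added. In fits without the block it was at 0.018 without LG replicate 4 and 0.33 without LG replicate 1.

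**Figure D3:**
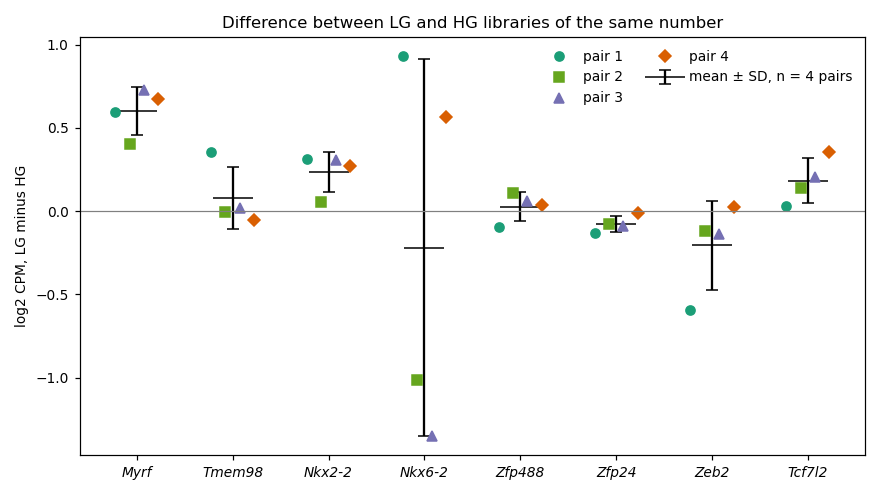
Difference in log2 CPM, LG minus HG, for each regulator in each pair of same-numbered libraries, with black bars for the mean ± SD over 4 pairs. Myrf is above 0 in all pairs at 0.60 ± 0.14, Nkx2-2 and Tcf7l2 are above 0 in all pairs at 0.24 ± 0.12 and 0.18 ± 0.14, and Nkx6-2 runs from -1.35 to 0.93.

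Levels were compared between the regulators as normalised CPM per kilobase of exon, averaged over the 8 libraries. Nkx2-2 was highest at 45.9 ± 13.9, followed by Zfp24 at 30.0 ± 1.87, Zfp488 at 27.2 ± 7.45 and Tmem98 at 15.6 ± 3.35 (SD, n = 8 libraries). Below these came Zeb2 at 8.69 ± 1.18, Myrf at 6.33 ± 2.77 and Tcf7l2 at 5.63 ± 1.31, and Nkx6-2 was lowest at 0.114 ± 0.065. Ranges over the 8 libraries did not overlap between Tmem98 and Zeb2 or between Tcf7l2 and Nkx6-2, and they overlapped between every other pair of neighbours. In LG Myrf averaged 7.67 ± 3.13 and Tcf7l2 6.03 ± 1.64 CPM per kilobase, against 5.00 ± 1.81 and 5.24 ± 0.92 in HG (SD, n = 4). The order of the middle genes rests on the length used: with the longest transcript in place of all exons Zeb2 stood above Tmem98, at 19.0 against 15.6, and Tcf7l2 above Myrf, at 13.3 against 9.56.

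**Figure D4:**
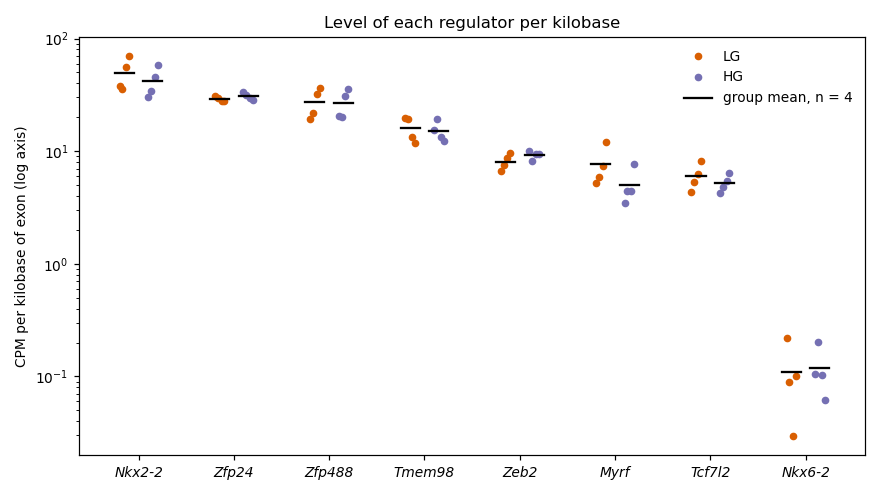
Normalised CPM per kilobase of exon on a log axis for the 8 regulators in order of their mean over 8 libraries, with LG and HG libraries as points and group means as lines. Nkx2-2 is highest at 45.9, Myrf stands among the lower genes at 6.33, and Nkx6-2 is the lowest at 0.114.

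For each of the 8 regulators the replicate number held a larger share of the variation than the glucose group, for Zeb2 by little. The shares are not scaled for degrees of freedom, and having more of them by itself gives a larger share. The replicate number held 67.0% of the variation of Myrf in log2 CPM over the 8 libraries, 90.4% for Tmem98, 89.4% for Nkx2-2, 98.9% for Zfp488, 86.6% for Tcf7l2, 70.6% for Zfp24, 47.5% for Nkx6-2 and 33.8% for Zeb2, against a median of 62.0% over all genes tested (the number has 3 degrees of freedom and the group 1). The glucose group held 31.7% for Myrf, 29.0% for Zeb2 and 22.8% for Zfp24, at most 9.46% for the other 5, and a median of 8.02% over all genes. For Zeb2 the remainder, 37.1%, was larger than either part.

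**Figure D5:**
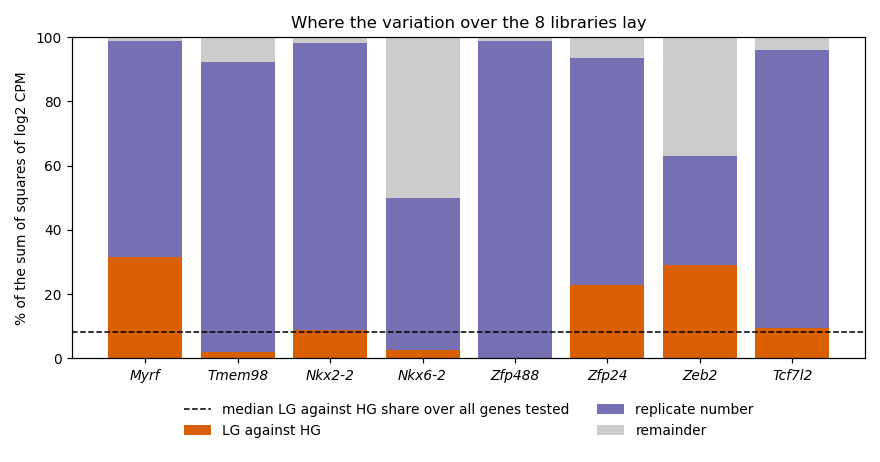
Share of the sum of squares of log2 CPM over the 8 libraries that lies between glucose groups, between replicate numbers and in the remainder, for each regulator. Myrf has the highest share between LG and HG, 31.7%, against the dashed median of 8.02% over all genes, and Zfp488 has 98.9% between numbers.

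In a fit with the preparation code and the glucose group as terms, 5 of the 8 regulators differed between preparations by edgeR's quasi-likelihood test. These were Nkx2-2 (adjusted p = 5.6e-05 by edgeR), Zfp488 (5.6e-05), Myrf (0.000243), Tmem98 (0.00561) and Tcf7l2 (0.0059), while 13.7% of all 18905 genes passed that test. Libraries 3 and 4 were higher than libraries 1 and 2 by 0.71 on the log2 scale for Nkx2-2, 0.73 for Zfp488, 0.66 for Myrf and 0.47 for Tcf7l2. Tmem98 went the other way, at -0.54. In this contrast 8.87% of all genes passed as higher and 11.1% as lower. Nkx2-2 had 130 to 200 CPM in libraries 3 and 4 and 87.7 to 109 CPM in libraries 1 and 2, and Tmem98 had 19.4 to 21.9 CPM in libraries 3 and 4 and 25.3 to 32.4 CPM in libraries 1 and 2, with no overlap for either gene. For Myrf the ranges overlapped, at 38.1 to 104 CPM in libraries 3 and 4 and 29.7 to 50.4 CPM in libraries 1 and 2. Its mean was 50.6 CPM for number 3 and 84.8 CPM for number 4. Tcf7l2 did not pass without LG replicate 4 (edgeR adjusted p = 0.0677), and Zeb2 passed with the GC and length offsets (0.00283). Astrocyte markers summed to 750 to 866 CPM in libraries 3 and 4 and 1780 to 1928 CPM in libraries 1 and 2, markers of mature oligodendrocytes to 2.03 to 2.88 and 15.3 to 18.3 CPM, and premyelinating markers to 2643 to 4411 and 1933 to 2409 CPM. Their part in the differences between preparations was not tested.

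The RefSeq promoters (GRCm38.p6, 250 bases before to 50 after the start) of Nkx2-2, Zfp488 and Tmem98 are shown as examples of the 5 regulators that differed between preparations, Tmem98 in the opposite direction to the others. RefSeq promoters of 6 of the 8 regulators were searched. Tcf7l2, which also differed, has 2 of these promoters, which are not printed: neither held an E-box, and 1 held an NK2 box. Myrf, which differed too, and Zfp24, which did not, were not among the 6 searched. Each is printed 5′ to 3′ on the gene's own strand, with capitals for matches on either strand to an E-box (CANNTG, which Olig2 and other bHLH factors bind), its Zeb form (CACCTG), a TCF box (CTTTGA), an NK2 homeodomain box (TNAAGTG) or a Myrf box (CTGGNAC).
Nkx2-2, chr2:147186353-147186652, minus strand: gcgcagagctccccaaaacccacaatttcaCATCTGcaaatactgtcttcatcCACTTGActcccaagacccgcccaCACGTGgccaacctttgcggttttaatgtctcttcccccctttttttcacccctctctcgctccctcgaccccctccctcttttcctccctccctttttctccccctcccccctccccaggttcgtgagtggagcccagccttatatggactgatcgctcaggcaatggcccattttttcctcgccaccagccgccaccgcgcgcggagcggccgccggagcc
Zfp488, chr14:33978715-33979014, minus strand: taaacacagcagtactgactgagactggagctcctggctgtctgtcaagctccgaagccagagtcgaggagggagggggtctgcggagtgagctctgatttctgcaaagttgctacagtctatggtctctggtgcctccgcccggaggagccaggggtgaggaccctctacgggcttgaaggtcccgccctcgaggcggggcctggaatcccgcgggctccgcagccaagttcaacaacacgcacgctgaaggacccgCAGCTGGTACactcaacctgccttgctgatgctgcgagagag
Tmem98, chr11:80810116-80810415, plus strand: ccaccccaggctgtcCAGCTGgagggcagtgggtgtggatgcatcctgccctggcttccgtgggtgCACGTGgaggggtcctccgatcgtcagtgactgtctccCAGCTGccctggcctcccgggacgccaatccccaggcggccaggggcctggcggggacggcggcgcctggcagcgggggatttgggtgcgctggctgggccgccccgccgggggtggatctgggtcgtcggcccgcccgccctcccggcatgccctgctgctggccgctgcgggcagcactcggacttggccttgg
Nkx2-2 held 3 E-boxes, and 1 of them overlaps its single NK2 box. Zfp488 held 1 E-box that runs into its single Myrf box, and Tmem98 held 3 E-boxes. Nkx6-2 and Zeb2 were also searched and did not differ between preparations in the main fit. Nkx6-2 held 1 E-box, which is of the Zeb form, and the 4 Zeb2 promoters held no match. Of 32851 RefSeq promoters of this length 72.3% held an E-box, 20.2% the Zeb form, 16.0% a TCF box, 11.5% an NK2 box and 19.3% a Myrf box. A match describes these letters and is not a site shown to be bound.

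Myrf (ENSMUSG00000036098) lies on GRCm38 chromosome 19 at 10208272 to 10240748 on the minus strand, and no other gene of the GENCODE M21 annotation overlaps it. Tmem98 (ENSMUSG00000035413) lies on chromosome 11 at 80810175 to 80822033, also free of overlapping genes. Tcf7l2 (ENSMUSG00000024985) lies on chromosome 19 at 55741820 to 55933654, and Zeb2 (ENSMUSG00000026872) on chromosome 2 at 44983632 to 45117395. Zeb2os covers 3.27% of the Zeb2 exons on the other strand and had 44 to 95 counts per library, against 7047 to 12924 for Zeb2.

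The genes most like Myrf across libraries were Zdhhc14 (Pearson r = 0.980, Spearman rho = 0.952), Sipa1l2 (0.978 and 0.976), Neu4 (0.974 and 0.952), Usp20 (0.968 and 0.952) and Snx30 (0.968 and 0.929), compared by log2 CPM over 8 libraries among the 11545 of 18905 tested genes with a mean of at least 5 CPM. The libraries fall into preparations and share their numbers between groups, so these values describe a pattern over dependent points and carry no test. Neu4 was at 11.1, 14.1, 17.6 and 29.1 CPM in LG replicates 1 to 4, against 6.13, 8.14, 11.3 and 17.1 CPM in HG replicates 1 to 4. As for Myrf, the highest library was LG replicate 4 and the lowest HG replicate 1. The opposite pattern was closest in Tcf12 (r = -0.976), Rgs7 (-0.973) and Tbc1d32 (-0.968). Among the regulators Tcf7l2 ranked 58th with r = 0.926 and Nkx2-2 135th with 0.896, while Tmem98 had -0.561 and Zfp24 -0.879.

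Myelin genes that Myrf binds did not show 1 direction. Of 18 tested genes of 19, 9 were higher and 9 lower in LG with the block, where 50.4% of all genes tested were higher. Their median log2 fold change was -0.021, against 0.0015 over all genes tested, and 1 passed, against 0.418% of all genes. The 1 that passed was Fa2h, which makes the hydroxylated lipids of myelin, at 26.7 ± 8.59 CPM in LG and 19.0 ± 7.31 CPM in HG (SD, n = 4), a rise of 0.52 (SE 0.076, edgeR adjusted p = 0.0346). Cnp was at 0.26 and the lysophospholipase gene Enpp2 at 0.15, each higher in LG in 4 of 4 pairs, and neither passed. Without the block no gene of this or the following lists passed.

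Partners of Tcf7l2 and feedback genes of the Wnt pathway showed no call in either direction among 11 tested of 14. With the block 5 were higher and 6 lower, with a median of -0.0020. Over all genes tested 50.4% were higher in LG and 0.418% were called in that fit. The Wnt inhibitor gene Apcdd1 was at 0.26 (4 of 4 pairs higher in LG), the corepressor gene Tle3 at 0.15, the feedback gene Axin2 at -0.13 and Hdac2, a deacetylase that binds Tcf7l2, at -0.098. Lef1, Sp5 and Notum had too few counts to test.

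Partners and targets of Zeb2 had 12 of 18 members higher in LG and none called with the block, at a median of 0.066. Over all genes tested 50.4% were higher in LG and 0.418% were called in that fit. Id4, an inhibitor of differentiation that BMP signals induce, was at 19.2 ± 17.3 CPM in LG and 14.9 ± 14.0 CPM in HG (SD, n = 4), with a log2 fold change of 0.43 (edgeR adjusted p = 0.0561), and it passed when the offsets were added (0.51, edgeR adjusted p = 0.0203). The Notch target gene Hes5 was at 0.33, and higher in LG in 4 of 4 pairs. Bmp4 was at 0.65 with an SE of 0.38 and Rbbp7, of the NuRD repressor complex, at -0.087.

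Of 11 paralogs of the regulators 5 were tested and 1 passed with the block, against 0.418% of all genes tested. Tcf7l1, the sister gene of Tcf7l2 that mostly represses, rose by 0.47 (SE 0.083, edgeR adjusted p = 0.0469), at 22.9 ± 7.69 CPM in LG and 16.5 ± 5.40 CPM in HG (SD, n = 4). Zeb1 was at 602 ± 81.8 CPM in LG and 667 ± 90.5 CPM in HG, lower in LG in 4 of 4 pairs, and did not pass (-0.15, edgeR adjusted p = 0.328). Tcf7 was at 0.090 and Prdm8, the relative of Zfp488, at -0.088. Nkx2-3, Nkx2-9 and Nkx6-1 had 0 counts in all 8 libraries, which allows up to 0.0456 to 0.0590 CPM per library (3 counts).

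Among 27 other regulators of the lineage, all tested, 10 were higher and 17 lower in LG with the block. Their median was -0.032, and 1 passed. Over all genes tested 50.4% were higher in LG and 0.418% passed in that fit. Sox8, a partner of Sox10, rose by 0.37 (SE 0.061, edgeR adjusted p = 0.0381), at 552 ± 70.7 CPM in LG and 428 ± 66.9 CPM in HG (SD, n = 4). The homeobox gene Prrx1 was at -0.37 (edgeR adjusted p = 0.0573), Nfib at -0.26 and Klf6 at -0.26, each lower in LG in 4 of 4 pairs, and none of them passed. The calls of Fa2h, Tcf7l1 and Sox8 ended in the blocked fit without number 1 (edgeR adjusted p = 0.117, 0.187 and 0.117, in that order) and without number 2 (0.154, 0.192 and 0.197), with libraries 1 and 2 summed (0.0633, 0.0992 and 0.0936), and with the preparation block (0.130, 0.163 and 0.139). That of Sox8 also ended without number 3 (edgeR adjusted p = 0.104) and that of Tcf7l1 without number 4 (0.0614).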

How the data were processed

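RNA was sequenced from 8 cultures, 4 LG and 4 HG, in pairs of 150 bp reads after an mRNA kit had been given 100 ng of RNA, per the labels' protocols. The authors deposited raw counts for each Ensembl ID, without normalisation. The tools CASAVA 1.8.2, STAR, featureCounts and DESeq2 and the build mm10 are listed, without their roles, per the submitters' processing notes. The annotation release and the rule for multi-mapped reads were not given in the sources used here. Symbols were taken from GENCODE M21 for 52073 of 56980 IDs.

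Genes were kept by filterByExpr, scaled by TMM and tested in R 4.3.3 with edgeR 4.0.16 (quasi-likelihood, robust, threshold 0.05, adjusted over all 18905 genes). An SE is the absolute log2 fold change over the square root of F. Log2 CPM used a prior count of 2. The main fit had no block. Libraries of the same number share a preparation code, and their deviations from the group means correlated at 0.448 to 0.625 (at most 0.419 between numbers), so the numbers were taken to pair the libraries. Alternatives used DESeq2 1.42.0, limma 3.58.1 and mgcv 1.9.3. Counts were simulated for 18577 genes of this comparison, with number differences built in. Of 100 genes changed 1.4-fold, 11% were recovered without the block and 93% with it. Of 100 genes changed 2-fold, 83% were recovered without the block and 100% with it. Without and with the block 0 and 11 unchanged genes were called. No library repeated another of its group (chi-square per degree of freedom at least 19.1).

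All 8 regulators are described. In each list at most 4 genes are named, those that passed with the block and then those with the smallest p there. A gene that this rule names is not reported here. The regulators and lists were chosen with earlier results of these data known, and the tests of preparations and ratios after seeing the values.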

Additional observations from a re-analysis of the deposited data

How the results depend on the processing

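The number of genes called among all tested was 0 without a block. It was 79 with the replicate block, 148 with the replicate block and the GC and length offsets, 1 with the preparation block, 17 with blocked sums per preparation, 4 by DESeq2, 474 by DESeq2 with the replicate block and 67 by limma-voom with the replicate block. The number of regulators called was 0 without a block, 1 (Myrf) under the replicate block by edgeR, with or without the offsets, by limma-voom and with blocked sums, and 2 by DESeq2 with the replicate block (Myrf and Nkx2-2). Leaving out 1 library in fits without a block gave 0 genes and 0 regulators. The replicate block without number 1, 2, 3 or 4 gave 6, 0, 39 or 148 genes and 0, 0, 1 or 1 regulators. Myrf kept its sign in all 26 alternatives and passed in 7. Zfp24 turned to 0.041 when the offsets joined the block and to 0.045 with the offsets alone. With 1 library left out Tmem98 ran from -0.025 to 0.25, Zfp488 from -0.14 to 0.20 and Nkx6-2 from -0.65 to 0.29. In the blocked fit Tmem98 was at -0.013 without number 1, Zfp488 at -0.00037 and Nkx6-2 at 0.19 without number 2, and Nkx6-2 at 0.16 without number 3. Leaving out the preparation of numbers 1 and 2 put Tmem98 at -0.014. No value that changed sign passed, and the cause was not tested. The number of regulators that differed between preparations was 5, and 4 to 5 with 1 library left out. Nkx6-2 has no value under the filter of 1 CPM in 4 libraries. Nkx6-2 had 3 to 22 counts per library, the fewest of the 8 regulators.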
